A study of Caenorhabditis elegans with 34 samples.

Results

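The sperm genes that fell by adulthood were 146 genes of Caenorhabditis elegans, out of 5543 genes with a name on the array, whose RNA stood high in sperm-making worms and in wild-type L4 larvae and was lower again in young adults. They were chosen by measured values: a mean log2 ratio of fem-3 over fem-1 worms of at least 2.0, a wild-type minus glp-4 difference at L4 of at least 1.0, and a change from L4 to adult in wild type of -0.7 or lower. Genes on chromosome X were left out, as were genes that carry a gene-class symbol (such as spe-18) in the annotation of the array. One gene, W01B6.5, was present on 2 spots, so the 146 genes had 147 spots, and counts below are of spots. Of 3222 sequence-named autosomal spots with the 3 measures, 147 met the rule and are called members here.

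RNA was measured on 34 two-colour spotted arrays in 9 groups. Wild-type N2 worms were taken as larvae at L2 (3 arrays), L3 (4) and L4 (4) and as young adults (3). The glp-4(bn2) worms, which the labels use as worms with no germ line, had 3, 4, 4 and 4 arrays at the same stages, and each array was set against a pool of wild-type reference RNA. On the other 5 arrays fem-3(q23) RNA, from a gain-of-function mutant that makes sperm continually, was set directly against fem-1(hc17) RNA, from a loss-of-function mutant that makes oocytes and no sperm. Both alleles are temperature sensitive: the restrictive temperature in the labels is 25 °C, growth is given at 15 °C, and the labels give no time for a shift between them. All values below are log2 ratios, of worm over reference for the 29 reference arrays and of fem-3 over fem-1 for the rest; the base of the logarithm was taken to be 2 and is not stated.

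In a C. elegans hermaphrodite the germ line first makes sperm, during the last larval stage, and then switches for good to making oocytes. The stored sperm stay in the spermatheca and fertilise the adult's own oocytes. Spermatids shed their ribosomes and stop transcription, so RNA for sperm proteins is made mainly in spermatocytes before the meiotic divisions end. The fem-1 and fem-3 genes belong to the sex determination pathway, in which fem-1 and fem-3 activity promotes the male fate and spermatogenesis. The glp-4(bn2) mutation blocks germ cell proliferation at the restrictive temperature.

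Members varied in how strongly the values that chose them were met. The fem-3 over fem-1 mean had a median of 3.56 over members and ran from 2.01 to 6.84, and 145 of 147 members were positive on every fem array with a value. The red dye was on the fem-3 side of every fem array, so the effects of dye and strain cannot be told apart. The wild-type excess at L4, meaning wild type minus glp-4, had a median of 1.85 and ran from 1.05 to 5.41. In 145 members every wild-type L4 array lay above every glp-4 L4 array. The change from L4 to adult in wild type had a median of -0.98 and ran from -2.38 to -0.71. The arrays were less clearly apart here: in 88 members every wild-type adult array lay below every wild-type L4 array. These numbers follow from the rule and were not tested. The counts of members with arrays apart include members with only 2 values in a group, and no share over all spots is given for them.

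Genes on either side of each threshold were close in value. C47E12.11, with a fem mean of 2.01, and ZK418.2, with 2.05, were just inside, while F44D12.8 at 1.97 and B0207.7 at 1.96 were just outside. For the L4 excess M70.2 at 1.05 and T05C12.1 at 1.06 were in, and R102.7 at 0.96 and T25B9.6 at 0.95 were out. For the fall R09E10.1 at -0.705 and W09D6.4 at -0.707 were in, and C46H11.6 at -0.699 and C04E6.5 at -0.694 were out.

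Single arrays moved membership. Leaving out 1 array at a time gave 102 to 204 spots: 102 without wild-type adult replicate 4, 104 without wild-type L4 replicate 1, 182 without wild-type adult replicate 3 and 204 without wild-type L4 replicate 4. A core of 67 spots met the rule in all 16 such settings. The labels of both wild-type L4 arrays named here disagree with their titles, since the details of replicate 1 say L3 and those of replicate 4 say L34. Without both, 163 spots met the rule, 129 of them members.

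The median of the members on each array differed by strain and by stage (the plot of array medians). In wild type it was -0.08, -0.13 and -0.13 on the L2 arrays, and 0.31, 0.15, 0.41 and -0.46 on L3 replicates 1 to 4. It was 1.98, 1.60, 1.67 and 1.19 on the L4 arrays and 0.67, 0.73 and 0.42 on the adult arrays. The 4 L4 arrays stood above all the other reference arrays, the adult arrays lay between them and the larvae before L4, and L3 replicate 4 stood below the other wild-type L3 arrays. In glp-4 worms the medians ran from -0.19 to -0.00 at L2, from -0.40 to -0.16 at L3, from -0.44 to -0.26 at L4 and from -0.48 to -0.26 in adults, so that every glp-4 L2 array lay above every glp-4 L4 and adult array, by less than the wild-type L4 arrays lay above the rest. These are whole-worm RNA samples, in which fewer cells of a type and less RNA per cell cannot be told apart.

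**Figure D1:**
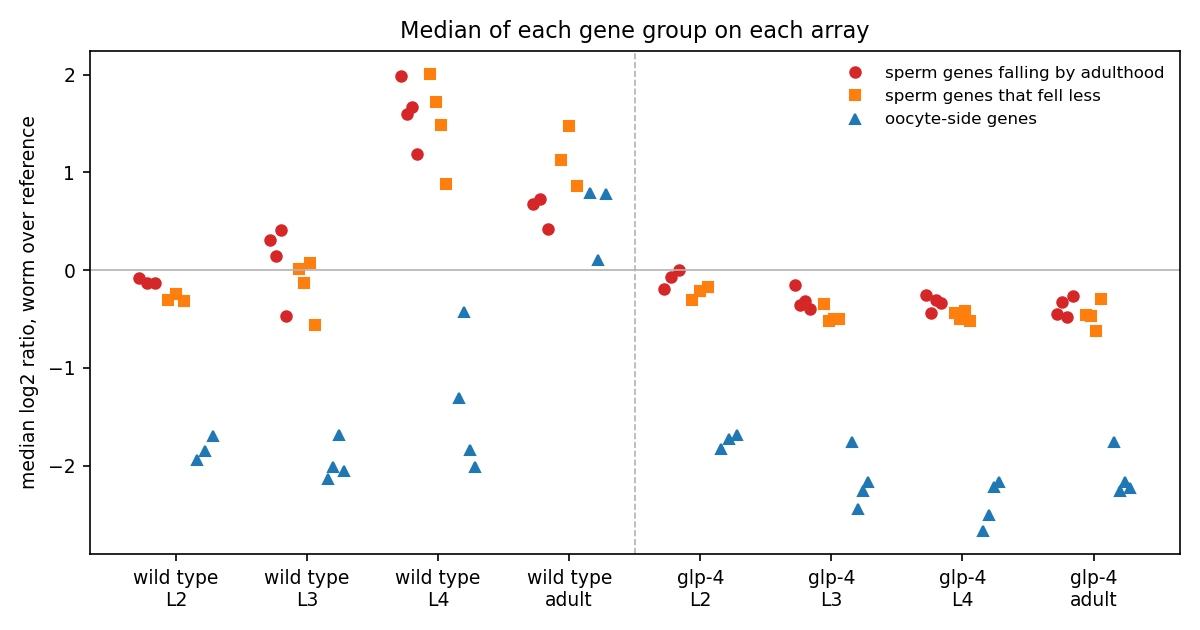
Median log2 ratio of worm over reference on each of the 29 reference arrays (1 point per array), for the sperm genes falling by adulthood (147 spots), the sperm genes that met the other conditions but fell less (157 spots) and the oocyte-side genes (21 spots). The members peak at wild-type L4, between 1.19 and 1.98, and lie between 0.42 and 0.73 in wild-type adults. The oocyte-side genes, chosen in part by their adult values, rise from at most -0.43 at wild-type L4 to at least 0.11 in wild-type adults.

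Within the wild-type L4 group the arrays kept a common order over many members. Among 138 members with a value on all 4 arrays, replicate 1 was highest in 88 and replicate 4 lowest in 90. The medians of the sperm genes that fell less were also highest on replicate 1, at 2.01, and lowest on replicate 4, at 0.88. Oocyte-side genes were 21 sequence-named autosomal spots with fem-3 below fem-1 by at least 2.0. They were also higher in wild-type than in glp-4 adults by at least 1.0, so their high adult values follow in part from that choice. Their medians on wild-type L4 replicates 1 to 4 were -1.31, -0.43, -1.83 and -2.01, so replicate 2 was the highest. In adults their medians were 0.79, 0.11 and 0.78 on replicates 2 to 4, and the member medians on the same arrays were 0.67, 0.73 and 0.42. Of the 8 oocyte marker genes, 2 were named on the array, memi-3 and oops-1, the second named as an oocyte partner of the sperm protein SPE-11. The wild-type means of memi-3 were -0.47 at L4 and 1.44 in adults, and those of oops-1 were -0.61 and 1.03. A longer list of 28 oocyte and eggshell genes had 3 on the array, these and cpg-22, which went the other way. The wild-type means of cpg-22 were 1.62 at L4 and -0.485 in adults, a change of -2.11 (limma, adjusted p = 0.000589). Its glp-4 means were also lower in adults, 1.92 at L4 and 0.40 in adults. The wild-type excess of cpg-22 at L4 was -0.30 (limma, adjusted p = 0.625). The part that a change in the mix of germ cells had in the members' lower adult values was not tested.

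T28H11.7, a gene on chromosome IV, had the highest fem-3 over fem-1 ratio of the members and the second highest L4 excess. Its values on the 5 fem arrays were 6.54, 6.93, 6.56, 7.16 and 7.02. In wild type it was -1.83, -1.39 and -1.66 at L2, -0.40, -0.89, 0.08 and -2.88 at L3, 3.34, 2.65, 2.78 and 1.63 at L4, and 1.44, 2.60 and 1.10 in adults. At L4 it lay above every glp-4 array, which held -2.62, -2.22, -2.38 and -2.74, and its adult values overlapped the L4 values. In glp-4 adults it was -0.47, -2.24, -3.15 and -2.29, all below the wild-type adults. The wild-type excess in adults was 3.75 (SE 0.56; limma, adjusted p = 1.22e-05).

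K08C9.2 on chromosome I had the largest L4 excess, with 3.42, 3.44, 2.82 and 2.35 on the wild-type L4 arrays against -1.995, -2.69, -2.60 and -2.33 in glp-4. Its wild-type adult values, 2.31, 2.58 and 1.60, overlapped those of L4 in 1 of 3 arrays and lay above all 4 glp-4 adult values, which ran from -2.37 to 0.47. Y106G6E.3, annotated as a pseudogene on chromosome I, ZK637.12 on III and W09D6.4 on III were next in L4 excess or close to it, at 3.93, 3.96 and 4.23. T16A9.5 on V was at 3.95. C54G4.3 and F46A9.1, both on chromosome I, completed the highest fem ratios with means of 5.52 ± 0.59 and 5.42 ± 0.66 (SD, n = 5).

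The members with the largest fall were a mixed group. ZK546.3, a pseudogene on chromosome II, and F28H1.5 on I had the lowest mean changes, -2.38 and -2.13, but each had only 2 values at wild-type L4. Those of ZK546.3 were -0.33 and 4.79, so its fall rests on 1 array. The 2 values of F28H1.5 at L4 were 1.08 and 2.11, and its adult values ran from -3.20 to 1.64, so the stages overlapped.

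C55B7.3 on chromosome I was lower on every wild-type adult array than on every L4 array. Its wild-type L4 values were 2.84, 1.77, 2.75 and 2.34, and its adult values 0.43, 0.05 and 0.67. The L2 values were already 0.96, 0.85 and 0.32 and the L3 values 1.19, 1.49, 1.16 and 1.38, so C55B7.3 was above the reference at all 4 wild-type stages. In glp-4 it was between -0.74 and 0.55 on all arrays.

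C06A8.6 on II, T27A3.5 on I and B0393.4 on III completed this group with changes of -1.81, -1.76 and -1.74. B0393.4 went from 1.76, 1.81, 2.40 and 1.91 at L4 to 0.16, 0.16 and 0.37 in adults. The glp-4 adults held 0.35, -0.25, -0.41 and 0.32, which overlapped the wild-type adults. C06A8.6 went from 2.50, 1.89, 2.46 and 1.76 to 0.49, 0.21 and 0.33, still above the glp-4 adult range of -1.09 to -0.13. T27A3.5 had a wider spread at L4, from 0.69 to 2.79.

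**Figure D2:**
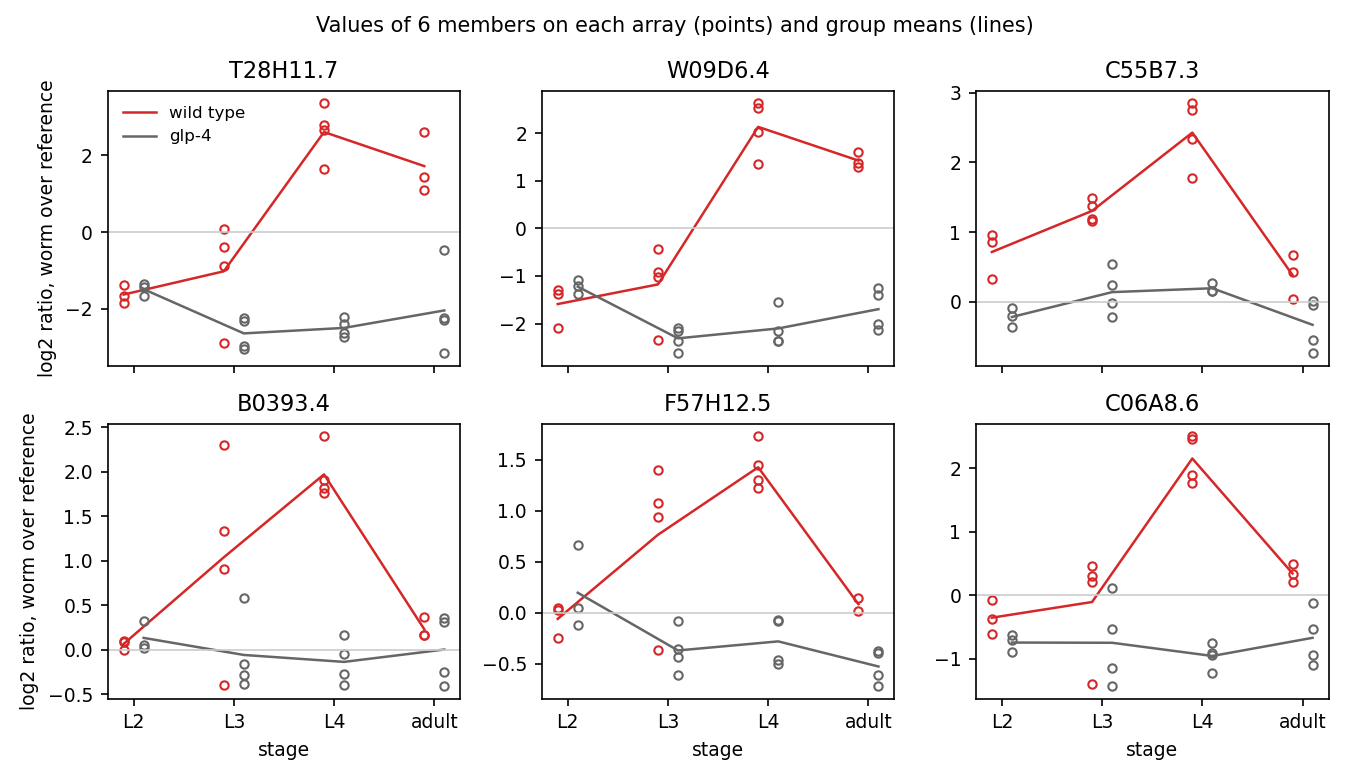
Log2 ratio of worm over reference on each array (circles) with group means (lines) for 6 members at 4 stages, wild type in red and glp-4 in grey; each panel has its own vertical scale. T28H11.7 and W09D6.4 stay far above glp-4 in adults, while B0393.4 overlaps glp-4 there, and the lowest wild-type L3 point of T28H11.7, W09D6.4, B0393.4, F57H12.5 and C06A8.6 is replicate 4.

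Whether members still differed between the strains in adults was tested with a limma model over all 29 reference arrays. No glp-4 adult array was used by the rule, while the wild-type adult arrays were, as the arrays on which members were low. Of 147 members, 91 were higher in wild-type adults at an adjusted p below 0.05 and 0 were lower, against 20.3% of all spots tested that were higher. The median adult excess was 0.89 over the members and -0.17 over all spots. It was at least 1 in 65 members and at least 2 in 19. Every wild-type adult array lay above every glp-4 adult array in 91 of 134 members with enough values, or 67.9%, and in 19.5% of all spots. The adult excess was smaller than the L4 excess in all 147 members, which the rule favours by choosing on the fall in wild type.

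C03C11.1 on chromosome I had the smallest adjusted p. Its adult values were 1.37, 1.51 and 1.29 in wild type and -0.88, -0.85, -1.32 and -0.65 in glp-4, with no overlap. The excess was 2.32 (SE 0.25; limma, adjusted p = 1.89e-07). C01G10.14 on V stood at 2.03, 2.81 and 1.26 against -0.56, -0.53, -0.67 and -0.70, an excess of 2.64 (SE 0.32; adjusted p = 6.29e-07). K06A5.2 on I, W09D6.4 and ZK637.12 followed with excesses of 2.64, 3.12 and 2.73.

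At the other end, 6 members had an adult excess at or below 0, and they are named here after their values were seen: F28H1.5, T02E1.7, ZK546.3, F41G3.5, M04G7.2 and F21A3.4. The standard errors of ZK546.3 (1.87), M04G7.2 (1.502) and F28H1.5 (1.33) were wide. F41G3.5 was at -0.01 (SE 0.40), F21A3.4 at -0.08 (SE 0.28) and T02E1.7 at -0.18 (SE 0.33). Across the 147 members the adult and L4 excess had a Pearson r of 0.76. It is given as a description, since the rule joins wild-type L4 and adult values by the fall and cuts off the low L4 values.

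**Figure D3:**
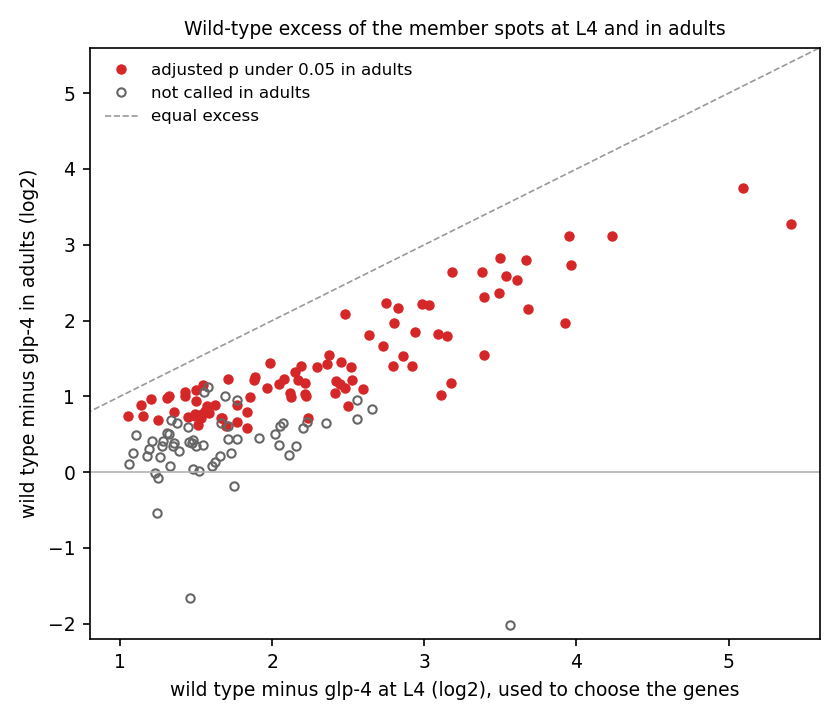
Wild type minus glp-4 in adults against the same difference at L4 (both log2) for the 147 member spots; filled points had an adjusted p under 0.05 in adults (91), open points did not (56), and the dashed line marks equal excess. All points lie below the dashed line, and 6 lie at or below 0 in adults.

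In glp-4 worms the change from L4 to adult, by which the members were chosen in wild type, was centred near 0. The glp-4 L4 arrays were used by the rule, as low against wild type, and the glp-4 adult arrays were not. Choosing low glp-4 L4 values works against finding falls in glp-4, so a small count of falls is favoured by the rule. Of 147 members 2 fell and 0 rose from L4 to adult in glp-4 (limma, adjusted p below 0.05). Of all spots 5.55% fell and 2.5% rose. The median change was 0.01 over the members and -0.07 over all spots. At an unadjusted p below 0.05 (limma), 9 members were lower and 3 higher. Of all 11326 spots tested, 1671 were lower and 846 higher at that cut. The wild-type L4 arrays had REF-vjr and mixed control wordings for the reference and the adult arrays only the second, and the same held in glp-4.

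The members that fell in glp-4 were M70.2 on IV and C14A4.8 on II. M70.2 was 0.86, 1.42, 0.32 and 0.36 at glp-4 L4 and -0.99, 0.22, -0.07 and 0.07 in glp-4 adults, without overlap. The change was -0.94 (SE 0.25; limma, adjusted p = 0.02), beside -1.25 in wild type. C14A4.8 went from 0.18, 1.02, 0.46 and 1.05 to -0.49, 0.06, -0.47 and 0.03, a change of -0.90 (SE 0.26; adjusted p = 0.0304), beside -1.21 in wild type. Both were above the reference on every glp-4 L4 array. Without glp-4 adult replicate 1 neither was called, and 1 member had fallen without glp-4 L4 replicate 4 or without glp-4 adult replicate 3. Without glp-4 L4 replicate 2 the 1 member called was a different one, which was higher in adults.

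The L3 arrays were not used by the rule, so they were used to look for a difference between the strains before L4. At L3, 10 of 144 members tested were higher in wild type and 0 lower, against 2.15% of all spots that were higher (limma, adjusted p below 0.05). The median excess was 0.38 over the members and 0.02 over all spots, and 131 of 144 were above 0, beside 52.1% of all spots. At an unadjusted p below 0.05 (limma), 50 were higher and 1 lower. Of all 11112 spots tested, 1124 were higher and 799 lower at that cut. By the stricter view that every wild-type array lies above every glp-4 array, 10 of 142 members (7.04%) met it, close to the 5.52% of all spots.

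Wild-type L3 replicate 4 stood apart from the other L3 arrays in the members. It was the lowest of the 4 wild-type L3 arrays in 110 of 128 members with all 4 values and the highest in 0, and its member median of -0.46 lay below those of all 4 glp-4 L3 arrays. This was not particular to the members. The sperm genes that fell less had medians of 0.01, -0.13, 0.08 and -0.56 on wild-type L3 replicates 1 to 4. Without replicate 4, 30 of 143 members were higher in wild type at L3, against 3.05% of all spots, and the median excess was 0.58. The count was 1 to 8 when any other L3 array was left out: 1 without wild-type replicate 1, 2 without glp-4 replicate 2 or 4 and likewise without wild-type replicate 2 or 3, 4 without glp-4 replicate 1 and 8 without glp-4 replicate 3.

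C55B7.3, already described, had the smallest adjusted p at L3. Its glp-4 L3 values were 0.55, 0.24, -0.02 and -0.21, all below the wild-type values, and the excess was 1.17 (SE 0.23; limma, adjusted p = 0.00489). F57H12.5 on IV was 0.94, 1.40, 1.08 and -0.36 in wild type and -0.08, -0.61, -0.35 and -0.43 in glp-4, so that its replicate 4 alone lay within the glp-4 range. F14F7.4 on III was 0.90, 0.64, 0.67 and -0.45 against -0.62, -0.50, -0.28 and -0.72, with the same pattern. C14C11.1 and T16A9.5, both on V, had excesses of 1.61 (SE 0.42; adjusted p = 0.0369) and 1.67 (SE 0.43; adjusted p = 0.0363). These calls were lost in many of the 16 alternative settings: in 3 for C55B7.3, 7 for F57H12.5, 8 for C14C11.1 and 9 each for F14F7.4 and T16A9.5. Over these settings the adjusted p reached 0.249 in C55B7.3, 0.593 in F57H12.5, 0.653 in F14F7.4, 0.532 in C14C11.1 and 0.626 in T16A9.5, each with only the mixed control arrays. Of the 10 members called at L3, 8 were also called in adults.

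At L2, 0 of 130 members tested were called in either direction, against 0.224% of all spots higher and 0.195% lower (limma). At an unadjusted p below 0.05, 3 were higher in wild type and 2 lower. Of all 10272 spots tested, 738 were higher and 357 lower at that cut. The median excess was -0.10, with 43 members above 0 and 87 below, beside 51.6% of all spots above 0. From L2 to L3 in wild type 0 of 131 members were called, against 0.181% of all spots in either direction. The median change was 0.25, beside -0.01 over all spots, and 114 of 131 were above 0, beside 48.3% of all spots. At an unadjusted p below 0.05, 15 members were higher and 1 lower. Of all 10487 spots tested, 410 were higher and 438 lower at that cut. Without wild-type L3 replicate 4, 6 members were called, and no share over all spots is given for that setting. In glp-4 the median change from L2 to L3 was -0.26 over 134 members and -0.09 over all spots. L2 arrays all had the REF-vjr wording and L3 arrays both wordings, and the part of the reference in these changes was not tested. The main change came between L3 and L4: in wild type the median of 145 members with values was 1.52 and all were above 0, a description since the rule used the L4 arrays, and in glp-4 it was -0.02.

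The difference between the adult and the L3 excess was tested as an interaction in the same model. It shares the wild-type adult arrays with the rule, and its adult and L3 terms with the comparisons above. The adult excess was larger in 21 of 144 members and smaller in 0, against 11.3% of all spots in which it was larger, so the members' share of 14.6% was near the background. The median difference was 0.57 over the members and -0.11 over all spots. All 21 were also higher in wild-type adults. Leaving out wild-type adult replicate 2 gave 10 members, and leaving out wild-type L3 replicate 4 or glp-4 L3 replicate 1 gave 13.

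C03C11.1 had the smallest adjusted p for the interaction, a difference of 1.71 (SE 0.35; limma, adjusted p = 0.00213). Its L3 values were -0.40, -0.35 and -1.09 in wild type and -1.08, -1.17, -1.30 and -1.30 in glp-4, so the strains overlapped at L3 and stood apart in adults. K06A5.2 was -0.48, -0.44, -0.37 and -0.98 against -0.93, -1.31, -1.25 and -1.40 at L3, and 1.03, 2.06 and 1.31 against -1.46, -1.53, -0.67 and -1.001 in adults, a difference of 1.98 (SE 0.47; adjusted p = 0.00564). C01G10.14 and W09D6.4 had differences of 1.84 and 1.99. F43G9.8 on I had L3 values of 0.03, -0.46, 0.24 and 0.02 in wild type against 0.81, 0.35, 0.11 and 0.38, which overlapped (difference -0.46, SE 0.20; adjusted p = 0.222). Its adult values were higher in wild type, 0.34, 0.42 and 0.56 against -0.09, -0.41, -0.57 and -0.16.

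A further 157 sequence-named autosomal spots met the fem and L4 conditions but fell by less than the rule asked. Their median L4 excess was 1.95, against 1.85 in the members, and their median change from L4 to adult was -0.39. The groups were separated by that change, so adult values differ by construction and no test between them was made. In adults 130 of 157 were higher in wild type, with a median excess of 1.48, beside 20.3% of all spots. At L3, where the rule used no array, their median excess was 0.29, beside 0.38 in the members, and 6 of 157 were called higher beside 10 of 144 members and 2.15% of all spots. The difference between these L3 values was not tested.

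The members were unevenly spread over the chromosomes. Chromosome IV held 46 of 147 members, or 31.3%, and 18.9% of the 3222 spots that could have met the rule. Chromosome V held 20 members, 13.6%, and 28.3% of those spots. The sperm genes that fell less leaned the same way, with 26.1% on IV and 14.6% on V, so the spread is not shown to be particular to the members. Of the measured spots 7.55% were members on IV, 5.44% on I, 4.58% on III, 4.45% on II and 2.19% on V. The rule excluded X, but none of 631 sequence-named spots there with all measures met the 3 value conditions, and 1 met the fem and L4 conditions. Positions came from the WBcel235 gene table and are not in the files of the array, and a few measured spots had no position in it.

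**Figure D4:**
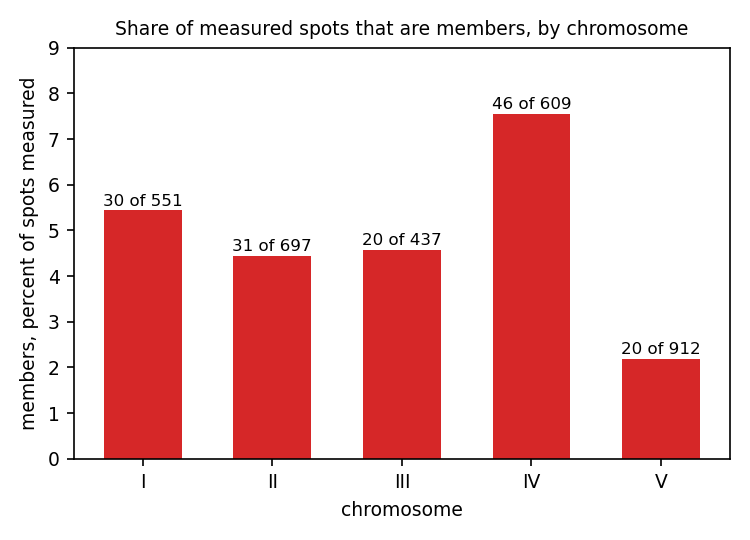
Share of the sequence-named spots with all 3 measures that were members, in percent, for each autosome; the labels give members of measured spots. The share runs from 2.19% on chromosome V to 7.55% on chromosome IV.

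Of the 146 member genes 22, or 15.1%, lay within 10 kb of another member, and 6.4% of the 3207 measured genes lay that close to a member. They formed 9 groups: F47B3.5, F47B3.7, F47B3.1 and F28H1.5 on I, ZK484.6, ZK484.7 and T27A3.5 on I, F59A6.4 and F59A6.2 on II, ZK930.4 and ZK930.7 on II, ZC262.1 and R05D3.5 on III, M70.3, M70.2 and M70.1 on IV, F36H12.10 and F36H12.9 on IV, C05C12.1 and F54D1.1 on IV, and C25D7.12 and C25D7.2 on V. Spots of similar genes can capture each other's RNA, and this was not tested.

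Neighbours were alike in outline but not in every value. F47B3.5 was 2.68, 2.41, 2.23 and 1.41 at wild-type L4 and 1.201, 1.97 and 0.79 in adults, while F47B3.7 was 2.67, 2.51, 2.41 and 1.04 and then 0.83, 1.09 and 1.12. Their L3 values parted: F47B3.5 was 0.56, 0.16 and -0.88, and F47B3.7 was -0.20, -0.48, -0.02 and -0.41. ZK930.7 and ZK930.4 shared a high first adult value, 1.63 and 1.70 on replicate 2, beside 0.55 and 0.62, and 0.42 and 0.25, on the others. F59A6.2 was 1.91, 1.45, 1.40 and 1.05 at L4 and 0.88, 0.87 and 0.29 in adults, with an adult excess of 1.25 (SE 0.19; limma, adjusted p = 1.48e-05). C25D7.2 and R05D3.5, both annotated as pseudogenes, had adult excesses of 2.09 (SE 0.45) and 0.88 (SE 0.34). F36H12.10 had 1 fem array far from the rest, 7.18 beside 1.75 to 3.55.

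Of the member spots 10, or 6.8%, were on pseudogenes, beside 7.85% of the measured spots. The median span of a member gene was 1542 bases, beside 1783.5 bases over measured spots. It was 1446 bases for the sperm genes that fell less and 1701 bases for the oocyte-side genes. No member has a gene-class symbol in the current gene table, so no role is given for any of them. Values on all 34 arrays were present for 85 members.

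Spots of a gene did not always agree. The spots of W01B6.5 had fem means of 4.82 and 2.81 and L4 excesses of 2.20 and 1.14; the second was called in adults (0.89, SE 0.34; limma, adjusted p = 0.0403), though not in 6 alternative settings, and the first was not (0.59, SE 0.53; adjusted p = 0.406). Member genes had 3 other spots outside the rule. The other spot of C47E12.11 had a fem mean of 1.54, an L4 excess of 2.72 and a fall of -0.42. That of C04G2.5 had 0.87, -0.13 and 0.02, and that of K08F4.5 had a fem mean of 0.99 with no L4 value.

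The spread between wild-type L4 arrays was widest in ZK546.3, C28D4.4 and F42C5.5. C28D4.4 on IV was 3.02, 3.10, 2.02 and 0.91, and F42C5.5 on IV 2.92, 2.02, 1.71 and 0.66. In both the lowest array was replicate 4.

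Genes with a gene-class symbol were outside the rule, and 12 of them met its value conditions: clc-10, gldi-10, mstr-2, nyn-3, pei-1, phyh-1, ptp-5.1, ptp-5.2, spsp-1, ttbk-4, ttbk-8.1 and txt-1. The ttbk genes belong to the tau-tubulin kinase family, and pei-1 encodes a protein of a sperm granule. Of a list of 67 sperm genes chosen with results of these data known, 17 were on the array and 16 had values in adults. Of these 16, 9 were higher in wild-type adults, beside 20.3% of all spots, and 1, ttbk-7, was lower. At L4, 10 of 16 were higher in wild type, beside 11.8% of all spots. From L4 to adult in wild type 7 of 16 fell, beside 11.8% of all spots, with a median change of -0.54. At L3 0 of 16 were called higher, beside 2.15% of all spots. The choice of the list with results known makes these counts no independent evidence of its direction.

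The named sperm genes differed among themselves. spe-18, which acts in packing the major sperm protein during spermatocyte development, had wild-type means of 2.46 at L4 and 2.08 in adults and a change of -0.38 (limma, adjusted p = 0.474). spe-49, needed for fertilisation, changed from 1.13 to 0.18 (adjusted p = 0.0326), and pei-1 from 1.56 to 0.84 (adjusted p = 0.0485). spe-36, which encodes a secreted sperm protein needed for fertilisation, stood at 0.27 and 0.26. spe-43, which acts in sperm activation, had an L4 excess of 0.36 (adjusted p = 0.283) and went from 0.26 to -0.25. spe-51, another fertilisation gene, lay the other way, with an L4 excess of -0.14 and wild-type means of -0.33 at L4 and 0.00 in adults (change 0.34, adjusted p = 0.336). These 6 were the ones of 14 sperm markers that were on the array.

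Germ-line markers on the array, 3 of 7, were mip-1, lotr-1 and syp-6. The first 2 encode germ granule proteins and syp-6 a protein of the synaptonemal complex. All were higher in wild type than glp-4 in adults (excess 4.23, 2.87 and 2.68) and at L4. Unlike the members they rose from L4 to adult in wild type, by 1.47, 1.19 and 0.84. Of 10 soma markers 2 were on the array, ule-3 and cest-35.1, and their adult excesses were -0.78 and -1.44.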

How the data were processed

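RNA was compared on 34 two-colour arrays of 13323 spots, of which the reference arrays held 10155 to 11696 values each and the fem arrays 12215 to 13295. The deposited values are log2 ratios of red over green per spot, as far as they show: signed, with array medians near 0, and with the log base, normalization and spot filter not given in the sources used here. Per the labels, red held the reference on 29 arrays, whose signs were turned, and GenePix was the scanner software except for fem replicate 1, reconstructed from ScanAlyze data with only normalized ratios valid. The labels mark fem replicate 3 as a repeat, give glp-4 L2 replicate 1 a source name of L3, call glp-4 L2 replicate 2 a pool of batches and title glp-4 adult replicate 1 T5 where the others have T4. Intensities were not used here, so precision rests on how many arrays each group has, and a p-value covers the variation among these samples, numbered by worm batch in the labels, and no more.

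Group means needed at least 2 values (3 for fem). Each spot was fitted with limma 3.58.1 in R 4.3.3 as 8 group means over 29 arrays, with 1 spread per spot and 2.4 prior degrees of freedom, two-sided, with Benjamini-Hochberg adjustment over all spots tested and a threshold of 0.05; the fit was tested on simulated data. Errors are standard errors of the fit (SE) or standard deviations (SD). Gene positions and types came from the WBcel235 gene table, which matched 4601 of 4624 sequence-named spots. Named genes are the extremes of each measure of the rule, the smallest adjusted p of each comparison, the edges of the thresholds, neighbouring members by fem mean, and the widest spreads. Members, lists and tests were chosen with earlier results of these data known. Alternatives were median centring, robust fitting, batch and reference wording as blocks, arrays of 1 wording, spots with complete values, only the groups compared, a natural-log reading, and each array left out.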

Additional observations from a re-analysis of the deposited data

Results flagged for a closer look

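In groups of 4 or 5 arrays, 205 sets of values from 37 members were searched for 1 array far from the others, and 14 were found; chance alone gives about 1 in 20. Wild-type L3 replicate 4 stood apart in 4 members: Y106G6E.3 at -3.60 beside 0.07 to 0.55, C06A8.6 at -1.40 beside 0.21 to 0.46, ZK930.4 at -0.67 beside 0.14 to 0.21, and ZK418.2 at 0.078 beside 0.63 to 0.69. Wild-type L4 replicate 4 was apart in 2, F47B3.7 at 1.04 beside 2.41 to 2.67 and F36H12.10 at 0.95 beside 1.46 to 1.56. Among glp-4 arrays, ZK637.12 was at -1.51 on L4 replicate 2 beside -1.60, C54G4.3 at -0.82 on L4 replicate 4 beside -1.24 to -1.19, and F42C5.5 at -0.38 on L4 replicate 3 beside -1.307 to -1.197. ZK930.7 was at 0.64 on glp-4 L3 replicate 3 beside -0.38 to -0.32, and R09E10.1 at -0.26 on glp-4 adult replicate 1 beside -0.90 to -0.86. Among fem arrays, ZK546.3 was at -1.88 on replicate 1 beside 5.42 to 6.09, C06A8.6 at 3.67 on replicate 1 beside 4.35 to 4.60, and C01G10.14 at 4.56 on replicate 3 beside 5.52 to 5.81.

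The wild-type excess was larger in adults than at L3 by the interaction test in 21 of 144 members. That share, 14.6%, was near the 11.3% of all spots. Of the 21 members 9 are named here. The difference, adult minus L3, was 1.71 in C03C11.1, 1.84 in C01G10.14, 1.98 in K06A5.2, 1.201 in F43G9.8, 1.99 in W09D6.4, 1.72 in ZK637.12, 2.34 in C25D7.2, 0.92 in F59A6.2 and 1.08 in F47B3.7.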

How the results depend on the processing

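The number of member spots (147) was 240 if the values were natural logarithms, 84 with only L4 arrays of the mixed control wording, 123 after median centring, and 102 to 204 with 1 array left out. At L3 the 10 called members became 0 with only mixed control arrays or only the arrays of the groups compared, and 1 to 30 with 1 array left out. The glp-4 change from L4 to adult was called in 1 member after centring, in 0 with only the groups compared, and in 0 to 3 with 1 array left out, against 2. From L2 to L3 in wild type, 4 members were called with only REF-vjr L3 arrays and 0 to 6 with 1 array left out. The adult count of 91 stayed between 72 and 95, and the L2 count was 0 in each setting run. For the interaction, 9 members instead of 21 were called with only the groups compared and 10 to 26 with 1 array left out; of the 13 called without wild-type L3 replicate 4, 2 had the smaller excess in adults. Of 48 called results of 32 named genes that were run under the alternatives, 0 changed direction, 27 kept their call in every setting run and 21 lost it in at least 1, among them all L3 calls of named genes. The causes of these changes were not tested, and the settings that drop arrays also have fewer of them. Apart from L3 without wild-type replicate 4, no shares over all spots are given for these settings.

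With the batch number as replicate block the counts were 14 at L3, 95 in adults, 4 for the glp-4 change and 29 for the interaction. No shares over all spots are given for this model, so these counts show no change particular to the members. Same-numbered arrays deviated together with correlations of -0.09 to 0.28 over 7445 spots, not all above 0.1 in any pair of groups, and in no pair of groups did every array correlate best with its own number. The labels number worm batches and do not say that strains or stages share them.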
